A study of Mus musculus with 7 samples.

Results

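Fibroblast growth factor (FGF) ligands and the genes that report and restrain ERK signalling were examined in 7 mouse pluripotent cell lines. The members were 9 genes taken by their symbol in the annotation of the array: the ligands Fgf4, Fgf5, Fgf8 and Fgf15, the ERK phosphatase gene Dusp6, the Sprouty genes Spry2 and Spry4, and the ETS transcription factor genes Etv4 and Etv5. They were covered by 11 of the 25697 probes, and 8 of the 9 genes were among the 9213 genes tested. Spry2 was the exception, because its probe was above background on no array.

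RNA of each line had been hybridised once to an Illumina bead array. The 6 epiblast stem cell (EpiSC) lines were C1a1, E3, E5, T9, OG2.1 and OG2.2, and they were set against R1, a line of embryonic stem cells (ESCs). No treatment was recorded. Each line is 1 culture measured on 1 array, and the sources used here do not give its growth medium, passage or genotype. A p-value therefore measures the spread between lines, culture and array included, and R1 stands alone for its cell type. Fewer cells of a kind and less RNA per cell cannot be told apart in such bulk RNA.

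FGF ligands bind receptor tyrosine kinases at the cell surface and activate the RAS, RAF, MEK and ERK kinases in turn. Active ERK switches on its own brakes, among them Dusp6 and the Sprouty genes, and also the transcription factors Etv4 and Etv5, so that the RNA of these genes is widely read as a gauge of the pathway. In the mouse embryo, Fgf4 is made by the inner cell mass, Fgf5 by the epiblast after implantation and Fgf8 by the primitive streak.

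Markers of the labelled cell types were read first. Limma called 7 of 8 tested naive ESC markers higher in R1 and 2 of 6 tested EpiSC markers, Dnmt3b and Pou3f1, higher in EpiSCs. Of all genes, 8.11% were called higher in R1 and 7.1% higher in EpiSCs. Tbx3, Dppa3 and Tcl1 were above background in R1 alone, so these naive markers entered the test only through R1. The naive marker not called, Nr5a2, was at 8.26 in E3 and 9.09 in T9 on the log2 scale, against 9.73 in R1. The EpiSC markers Cer1 and Sox3 were above background in 4 and 2 of the 6 EpiSC lines. Between 10642 probes (E5) and 11574 probes (C1a1) were above background, meaning a detection p under 0.01 against the array's own control beads. The number of arrays limits the precision.

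Stretches of RefSeq sequence upstream of 4 members are shown first, because these genes carry both sides of the comparison: Fgf4 and Fgf5 are the ligands of the blastocyst and of the later epiblast, and Dusp6 and Etv5 respond to ERK. Each runs 5′ to 3′ over the 250 bases before the gene's annotated start in GRCm38.p6. The positions are chr7:144861136-144861385 on the plus strand for Fgf4, chr5:98253934-98254183 on the plus strand for Fgf5, chr10:99262981-99263230 on the plus strand for Dusp6 and chr16:22439571-22439820 on the minus strand for the more upstream of the starts listed for Etv5. Capitals mark matches on either strand to CCGGAA or CAGGAA, or to CCAAT, the CCAAT box, and no matches overlap. CCGGAA and CAGGAA are some of the forms of ETS factor sites, and other forms were not marked.
Fgf4: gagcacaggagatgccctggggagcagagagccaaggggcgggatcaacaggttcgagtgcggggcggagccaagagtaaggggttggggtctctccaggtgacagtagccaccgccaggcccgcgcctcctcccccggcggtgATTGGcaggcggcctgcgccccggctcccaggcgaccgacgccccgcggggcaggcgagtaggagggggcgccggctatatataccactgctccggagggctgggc
Fgf5: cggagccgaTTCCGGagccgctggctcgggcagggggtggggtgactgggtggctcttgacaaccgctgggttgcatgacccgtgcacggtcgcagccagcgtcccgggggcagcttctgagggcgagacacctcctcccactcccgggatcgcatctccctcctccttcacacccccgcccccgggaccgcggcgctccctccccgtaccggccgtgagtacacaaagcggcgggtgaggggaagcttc
Dusp6: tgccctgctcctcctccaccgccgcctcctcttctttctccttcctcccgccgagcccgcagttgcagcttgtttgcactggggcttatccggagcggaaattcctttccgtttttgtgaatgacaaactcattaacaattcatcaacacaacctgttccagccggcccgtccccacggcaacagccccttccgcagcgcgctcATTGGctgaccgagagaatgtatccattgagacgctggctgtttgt
Etv5: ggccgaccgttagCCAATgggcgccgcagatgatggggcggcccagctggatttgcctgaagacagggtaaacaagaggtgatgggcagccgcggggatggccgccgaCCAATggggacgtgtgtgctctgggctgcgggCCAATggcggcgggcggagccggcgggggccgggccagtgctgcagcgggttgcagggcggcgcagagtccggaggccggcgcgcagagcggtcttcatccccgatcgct

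CCGGAA was found once, in the Fgf5 stretch, on the minus strand from 241 to 236 bases before the start. CAGGAA was found in none of the 4 stretches shown, but once in the window of the other listed Etv5 start (57 to 52 bases before it) and once in that of Spry2 (98 to 93 bases before its start). CCAAT was found once for Fgf4 (106 to 102 bases before the start), once for Dusp6 (46 to 42 bases before it) and 3 times for Etv5. Among 32851 promoter windows of the same length, 12.0% held CCGGAA, 25.7% held CAGGAA and 33.8% held CCAAT. The promoter table matched 5 of the 9 members, and Fgf8, Fgf15, Etv4 and Spry4 are named only. A match is a run of letters and not a measured site.

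The first comparison asked which FGF ligands separate the EpiSC lines from the ESC line. Fgf5 and Fgf15 were higher in EpiSCs, Fgf8 was above background in 5 of 6 EpiSC lines and not in E5, and Fgf4 was shared by R1 and some of the EpiSC lines. Limma called 2 of the 8 tested members at an adjusted p under 0.05, both higher in EpiSCs, against 15.2% of all genes in either direction, 7.1% higher and 8.11% lower. Of the 4 ligands 2 were called, and of the 4 tested feedback genes 0. The called ligands, Fgf5 and Fgf15, were above background in the EpiSC lines and not in R1. Both thus entered the test only through the EpiSC lines. Values on the log2 scale are background-corrected and quantile-normalised intensities with an added offset of 16, which understates the differences of dim genes.

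Fgf5, the ligand of the epiblast after implantation, had signals of 1006 in OG2.1, 1146 in OG2.2, 1473 in E3, 872 in E5, 996 in T9 and 1897 in C1a1. In R1 its signal was 102, which the array did not separate from its control beads (detection p-value in the authors' deposited table, 0.857). Every EpiSC line lay far above R1, and the groups did not overlap. R1, a single array, lay below all 6 EpiSC lines for 29.7% of all genes. On the log2 scale the EpiSC mean was 10.09 ± 0.46 (SD, n = 6) against 4.41 in R1, 5.68 apart (SE 0.44, limma adjusted p = 1.42e-04). Because R1 gave only a bound, the increase was at least 21.1-fold. The bound was taken against the lowest detected value of the R1 array.

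Fgf15, the mouse counterpart of human FGF19, was a dimmer version of the same contrast. Its signals were 263 in OG2.1, 173 in OG2.2, 236 in E3, 303 in E5, 224 in T9 and 319 in C1a1, all above background. R1 stood at 133, not above background and below all 6 EpiSC lines, as it was for 29.7% of all genes. The EpiSC mean of 7.23 ± 0.57 (SD, n = 6) and the R1 value of 5.34 were 1.88 apart on the log2 scale (SE 0.53, limma adjusted p = 0.0481), at least 2.89-fold. That call sat at the threshold: the adjusted p was 0.105 without background correction, 0.0842 without a detection filter and between 0.0598 and 0.0777 when OG2.1, E3, E5, T9 or C1a1 was left out.

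Fgf8, the ligand of the primitive streak and later of several embryonic organisers, divided the EpiSC lines themselves. Its signal was 549 in OG2.1, 377 in OG2.2, 738 in E3, 754 in T9 and 1311 in C1a1. In E5 it was 114 and in R1 125, neither of them above background. E5 thus resembled R1 for this ligand while it kept Fgf5 and Fgf15. The EpiSC mean of 8.42 ± 1.96 (SD, n = 6) lay 3.39 above R1 at 5.03 (SE 1.68, limma adjusted p = 0.231), which did not pass, and the 95% interval ran from -0.49 to 7.26. Without E5 the difference was 4.14, but E5 was singled out by these same Fgf8 values, so that fit is no separate test. No fold is given, since neither E5 nor R1 was above background.

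Fgf4, which ESCs secrete and which drives their ERK activity, was dim on all 7 arrays. R1 had a signal of 182 and E5 one of 188, the brightest of all 7 arrays. OG2.1 and OG2.2 were just above background, both at 142. E3 at 131, T9 at 142 and C1a1 at 110 were not above background. R1 therefore did not stand apart from the EpiSC lines, since E5 matched it. The log2 difference was -1.01 (SE 0.61, 5.53 ± 0.68 in EpiSCs, SD, n = 6, and 6.54 in R1; limma adjusted p = 0.328), with a 95% interval from -2.42 to 0.40.

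**Figure D1:**
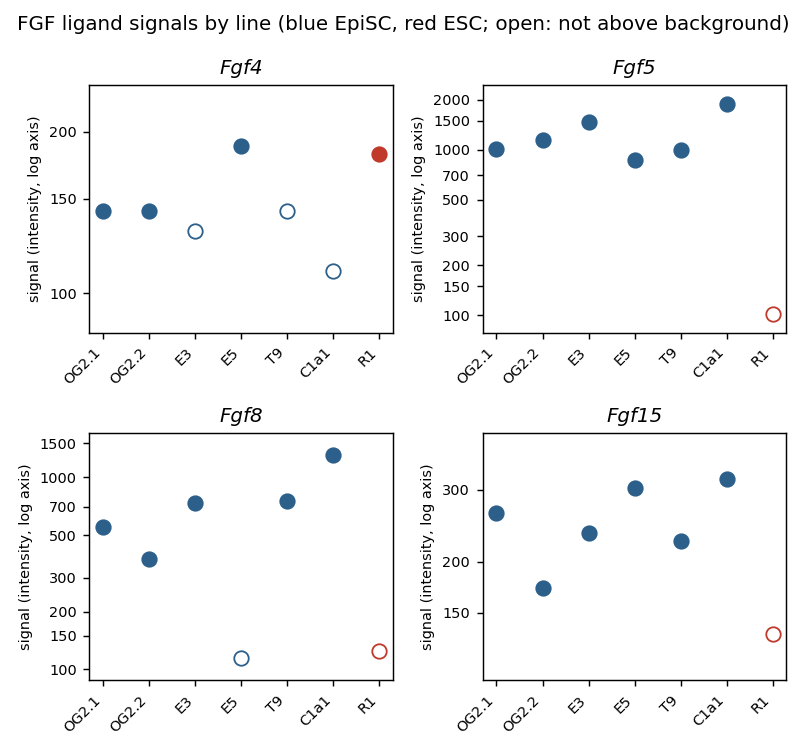
Signal of each ligand's probe (intensity, log axis) on the 7 arrays, with EpiSC lines in blue, the ESC line R1 in red and open circles for signals not above background. Fgf5 and Fgf15 are filled in all 6 EpiSC lines and open in R1, Fgf8 is open in E5 and R1, and Fgf4 is highest in E5 (188) and R1 (182).

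The feedback genes were then compared between the same groups, to see whether the change of ligands was matched downstream. None of the 4 tested feedback genes passed limma between the cell types. Dusp6 leaned to the EpiSC side, Spry4 and Etv5 to the R1 side, and Etv4 to neither, but none of these leanings passed the test. R1 lay outside the range of the EpiSC lines for 5 of the 8 tested members, below it for 3 and above it for 2. That is close to the background: R1 was outside the range for 55.8% of all genes, below it for 29.7% and above it for 26.1%.

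Dusp6, whose product removes phosphate from ERK in the cytoplasm, was read by 3 probes. The brightest had signals of 3472 in OG2.1, 3971 in OG2.2, 5233 in E3, 3637 in E5, 3029 in T9, 2451 in C1a1 and 2331 in R1. R1 was the lowest on this probe. On another probe its signal of 882 fell inside the EpiSC range of 762 to 1579. On the dimmest probe R1 had the lowest signal, 158.3 against 160.5 to 218.8, but after normalisation its log2 value of 6.10 fell inside the EpiSC range of 5.95 to 7.03. The brightest probe differed by 0.66 (SE 0.39, 11.76 ± 0.40 in EpiSCs, SD, n = 6, and 11.10 in R1; limma adjusted p = 0.317). Fitted probe by probe, the other 2 differed by 0.39 each (adjusted p = 0.628 and 0.623).

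Spry4, an inhibitor of signalling from receptor tyrosine kinases to RAS, fell into a higher and a lower set of lines. Signals were 289 in E3, 296 in E5, 277 in T9 and 322 in R1, against 194 in OG2.1, 196 in OG2.2 and 180 in C1a1. R1 was the highest of all arrays. EpiSCs had a mean of 7.07 ± 0.62 (SD, n = 6) on the log2 scale and R1 a value of 7.89, a difference of -0.82 (SE 0.56, limma adjusted p = 0.387), with a 95% interval from -2.12 to 0.48.

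Its relative Spry2 could not be assessed. The Spry2 signals ran from 113 to 131 in the EpiSC lines and stood at 131 in R1, with detection p-values from 0.0188 to 0.325. No statement on Spry2 is possible at this brightness.

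Etv5, an ETS factor of the PEA3 group, was highest in R1, where its signal was 1141. In the EpiSC lines it was 603 in OG2.1, 718 in OG2.2, 728 in E3, 814 in E5, 791 in T9 and 459 in C1a1. All EpiSC lines lay below R1, and C1a1 lay well below the others. The difference of -0.87 (SE 0.38, 9.16 ± 0.38 in EpiSCs, SD, n = 6, and 10.03 in R1) did not pass limma over all genes (adjusted p = 0.176), and its 95% interval ran from -1.74 to 0.01.

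Etv4, the other PEA3 factor measured, was centred on the R1 value. R1 had a signal of 971, and the EpiSC lines had 807 in OG2.1, 1799 in OG2.2, 656 in E3, 1161 in E5, 942 in T9 and 979 in C1a1. OG2.2 and E5 were above R1 on the log2 scale and the other 4 lines were below it. The difference was 0.03 (SE 0.51, 9.82 ± 0.55 in EpiSCs, SD, n = 6, and 9.79 in R1; limma adjusted p = 0.977). The 95% interval from -1.15 to 1.21 leaves room for more than a doubling in either direction.

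**Figure D2:**
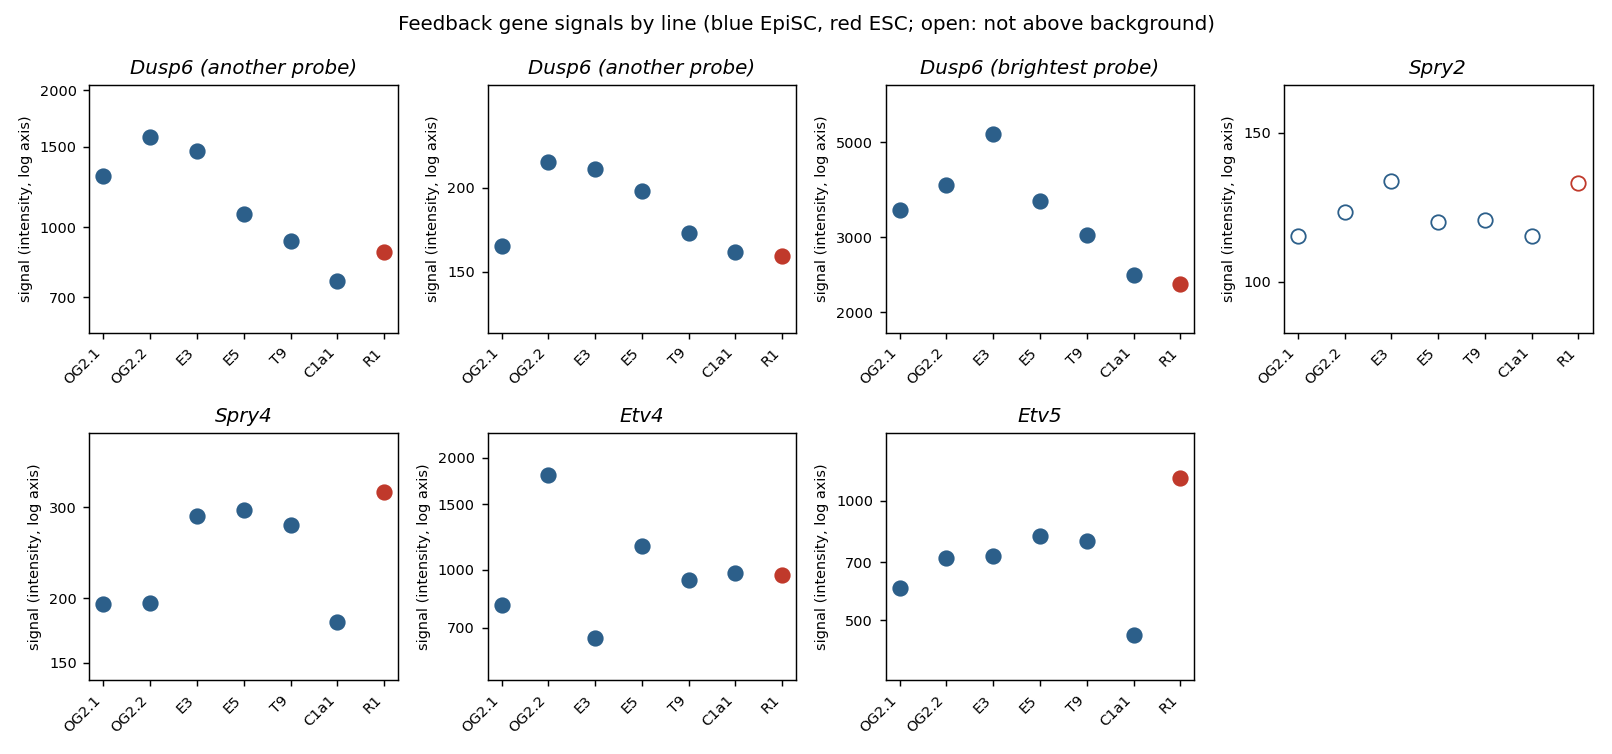
Signal of each feedback gene's probe (intensity, log axis) on the 7 arrays, with EpiSC lines in blue, the ESC line R1 in red and open circles for signals not above background. Etv5 and Spry4 are highest in R1, Etv4 is highest in OG2.2 (1799), C1a1 is the lowest EpiSC line for all 3 Dusp6 probes, Spry4 and Etv5, and every Spry2 circle is open.

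**Figure D3:**
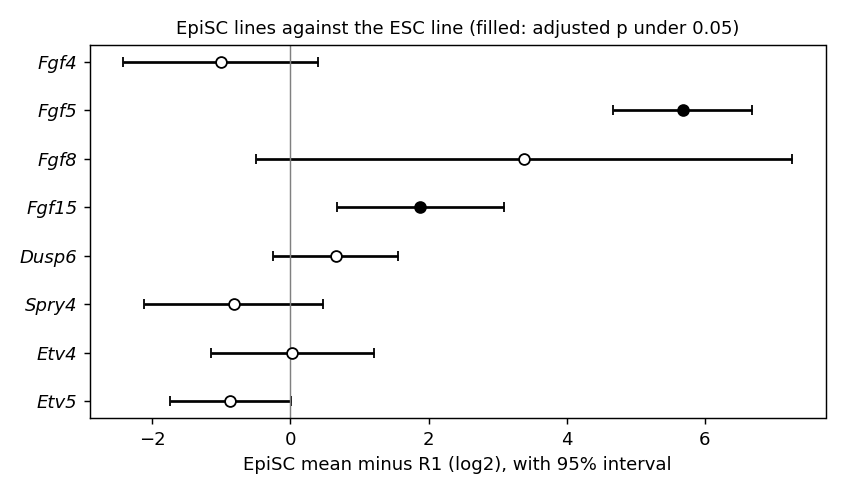
EpiSC mean minus R1 on the log2 scale for the 8 tested members, with 95% intervals from the limma fit and filled points for an adjusted p under 0.05. Fgf5 (5.68) and Fgf15 (1.88) are filled, and the intervals of the other 6 members include 0.

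The rest of the pathway was read from lists of other ligands, receptors, cascade components and ERK response genes. Of 18 other FGF ligand genes on the array, 13 were above background nowhere, and of the 5 tested 1 was higher and 1 lower (list median -0.51, against 0.05 for all genes). Fgf13, an intracellular FGF that does not signal through the receptors, was higher by 1.28 (SE 0.36, adjusted p = 0.0481 by limma). Fgf1 was above background in R1 alone and at least 1.87-fold lower in EpiSCs (adjusted p = 0.00288 by limma). It entered the test only through R1, and that p rests on the spread of EpiSC values not above background (SD 0.20). The Fgf13 call sat at the threshold, like that of Fgf15, and its outcome under other settings is not given. Of all genes, 7.1% were called higher and 8.11% lower.

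Of the receptors and their adaptors, 8 of 9 had a probe, 4 were tested and 0 passed (median -0.48). Fgfr1, the main receptor of the epiblast, was above background in all 6 EpiSC lines and R1 and differed by -0.68 (SE 0.56, adjusted p = 0.471 by limma). R1 lay just above all 6 EpiSC lines for Fgfr1, at 7.33 against at most 7.25. Fgfr2 was detected in 2 of the 6 EpiSC lines and not in R1, too dim for a comparison of levels.

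Of 21 genes of the RAS to ERK cascade, 13 had a probe and 11 were tested, with 1 higher and 1 lower (median -0.08). Gab1, a docking protein that links receptors to RAS and to PI3 kinase, was lower, with a log2 difference of -4.02 (SE 0.44, adjusted p = 8.27e-04 by limma). The EpiSC mean of Gab1 was 8.68 ± 0.46 (SD, n = 6) and its R1 value was 12.70, and all 6 EpiSC lines were above background. Ptpn11, the phosphatase SHP2 that relays receptor signals to RAS, was higher by 0.92 (SE 0.21, adjusted p = 0.0207 by limma).

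Of 22 other ERK feedback and response genes, 21 had a probe and 17 were tested. Of the 17 tested, 1 passed: Errfi1, a feedback inhibitor of epidermal growth factor receptors, which was higher by 1.37 (SE 0.32, adjusted p = 0.0258 by limma). The list median was 0.38. The wider set thus had 1 called gene and the 4 tested feedback members had 0, next to 15.2% of all genes.

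The second comparison set each EpiSC line against the other 5, because the title of the series speaks of different states of such lines. Over 8 members and 6 lines, limma called 0 of 48 differences, and 7 had an unadjusted p under 0.05. Over all genes, limma called 0.0434% in OG2.1, 0.0% in OG2.2, 0.0651% in E3, 0.0% in E5, 0.0109% in T9 and 0.0651% in C1a1. At an unadjusted p under 0.05 the shares were 5.98%, 5.29%, 6.23%, 8.1%, 2.18% and 6.07% in the same order. The member differences described here are thus measured values of single arrays that did not pass over all genes.

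E5 departed most in its ligands. Fgf8 had a log2 value of 4.66 in E5 and averaged 9.17 ± 0.77 (SD, n = 5) elsewhere, at least 11.04-fold lower (adjusted p = 0.228 by limma). Fgf4 in E5 was at 6.66 against 5.30 ± 0.44 (SD, n = 5), a difference of 1.36 (SE 0.42, adjusted p = 0.479 by limma). E5 also had the lowest Fgf5 of the 6 lines and the highest Spry4 and Etv5, and shared the highest Fgf15 with C1a1 (log2 values of 7.77 in both).

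C1a1 stood at the other end. It had the highest Fgf8 and Fgf5 and the lowest Dusp6, Spry4 and Etv5 of the 6 EpiSC lines, and its Fgf4 was not above background. Etv5 in C1a1 was at 8.47 against 9.30 ± 0.19 (SD, n = 5) in the others, a difference of -0.83 (SE 0.26, adjusted p = 0.723 by limma). Of the 4 tested feedback genes 3 were lowest in C1a1, where 17.9% of all genes had their lowest EpiSC value.

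OG2.2 differed in another way. Its Etv4 was at 10.79 and the mean elsewhere 9.63 ± 0.32 (SD, n = 5), 1.16 lower (SE 0.34, adjusted p = 0.734 by limma). Its Fgf15 was at 6.26 against 7.42 ± 0.36 (SD, n = 5), a difference of -1.16 (SE 0.37, adjusted p = 0.808 by limma). The next highest Etv4 signal among EpiSC lines was the 1161 of E5.

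The spread between EpiSC lines was wide for some members and ordinary for others. Fgf8 had an SD of 1.96, and 99.6% of tested genes varied less. Fgf4 (SD 0.68) and Spry4 (SD 0.62) varied more than 90.2% and 87.7% of genes. Dusp6 (SD 0.40) and Etv5 (SD 0.38) lay closer to the median SD of 0.33.

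**Figure D4:**
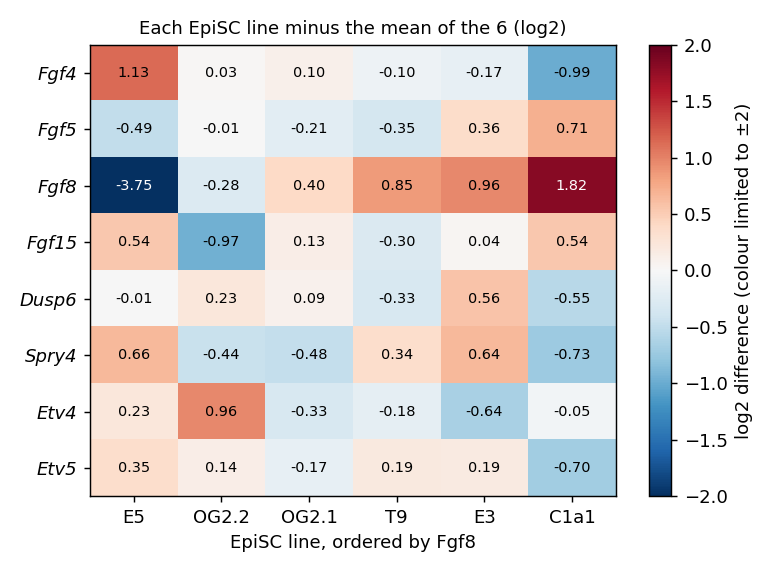
Log2 value of each tested member in each EpiSC line minus the mean of the 6 lines, with lines ordered by Fgf8 and colour limited to 2 either way. Fgf8 runs from -3.75 in E5 to 1.82 in C1a1, Fgf4 is highest in E5 (1.13) with E3, T9 and C1a1 not above background, and the feedback rows have no matching gradient.

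The third comparison asked whether the feedback genes follow Fgf8 over the 6 EpiSC lines. All 4 tested feedback genes had a negative correlation with Fgf8 and 0 of the 4 had an exact p under 0.05. With 6 lines, a relation of middling strength in either direction would not have been detectable. Pearson's r and Spearman's rho were computed for Fgf8 with each of the other 9212 genes, with an exact 2-sided permutation over all 720 pairings and adjustment over all genes. Of all genes, 49.3% had a negative r with Fgf8, 6.99% had an exact p under 0.05 and 0.0% passed after adjustment. The smallest adjusted p was 0.457. E5 and C1a1 lay farthest from the median of Fgf8, so r was also computed over the 4 lines between them.

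Dusp6 had r = -0.19 with Fgf8 (exact p = 0.711, adjusted p = 0.946) and rho = -0.26 (exact p = 0.658, adjusted p = 0.966). The line with the most Fgf8, C1a1, had the least Dusp6, and E5, without detected Fgf8, had a Dusp6 value that differed by -0.01 from the mean of the 6 lines. Over the 4 lines in between r was -0.06. Without C1a1 it was 0.18, so its sign rested on that line. The other 2 Dusp6 probes had r = -0.17 and r = -0.47, which describes the same 6 RNAs again.

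Spry4 had r = -0.48 (exact p = 0.374, adjusted p = 0.837) and rho = -0.49 (exact p = 0.356, adjusted p = 0.905). Without E5 its r was 0.01, and over the 4 middle lines it was 0.85, so the sign depended on which lines were counted. Etv4 had r = -0.39 (exact p = 0.386, adjusted p = 0.839) and rho = -0.54 (exact p = 0.297, adjusted p = 0.878), with r = -0.91 over the 4 middle lines and -0.64 without OG2.2. Etv5 had r = -0.63 (exact p = 0.190, adjusted p = 0.751) and rho = -0.54 (exact p = 0.297, adjusted p = 0.878), and 0.23 over the 4 middle lines. With any single line left out, r of Etv5 stayed between -0.72 and -0.56, so its sign changed when E5 and C1a1 were both left out and not with either alone.

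The ligands differed in how they ran with Fgf8. Fgf4 had r = -0.94 (exact p = 0.00417, adjusted p = 0.609) and rho = -0.94 (exact p = 0.0167, adjusted p = 0.624), the closest relation of the 7 members compared with Fgf8. It was still -0.71 over the 4 middle lines and -0.86 without E5, and -0.83 (exact p = 0.0556) on the authors' deposited log2 values. Only 3 of the 6 Fgf4 values and 5 of the 6 Fgf8 values were above background. The order of E3, T9 and C1a1 for Fgf4 is therefore not resolved. In the 4 middle lines the Fgf4 log2 values ran only from 5.36 (E3) to 5.63 (OG2.1). T9, not above background, had the signal of OG2.1 and OG2.2 (142), so the r of -0.71 largely ranks values near background.

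Fgf5 had r = 0.69 with Fgf8 (exact p = 0.118, adjusted p = 0.721) and rho = 0.77 (exact p = 0.103, adjusted p = 0.747), and r = 0.13 over the 4 middle lines. Fgf15 had r = -0.17 (exact p = 0.744, adjusted p = 0.953) and rho = -0.03 (exact p = 1.0, adjusted p = 1.0), and 0.76 over the 4 middle lines. Without E5 the Fgf15 value turned to 0.87 (exact p = 0.0750), as Fgf15 was as high in E5 as in C1a1. Among the 5 lines with Fgf8 above background, OG2.2 was lowest and C1a1 highest for both Fgf8 and Fgf15.

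**Figure D5:**
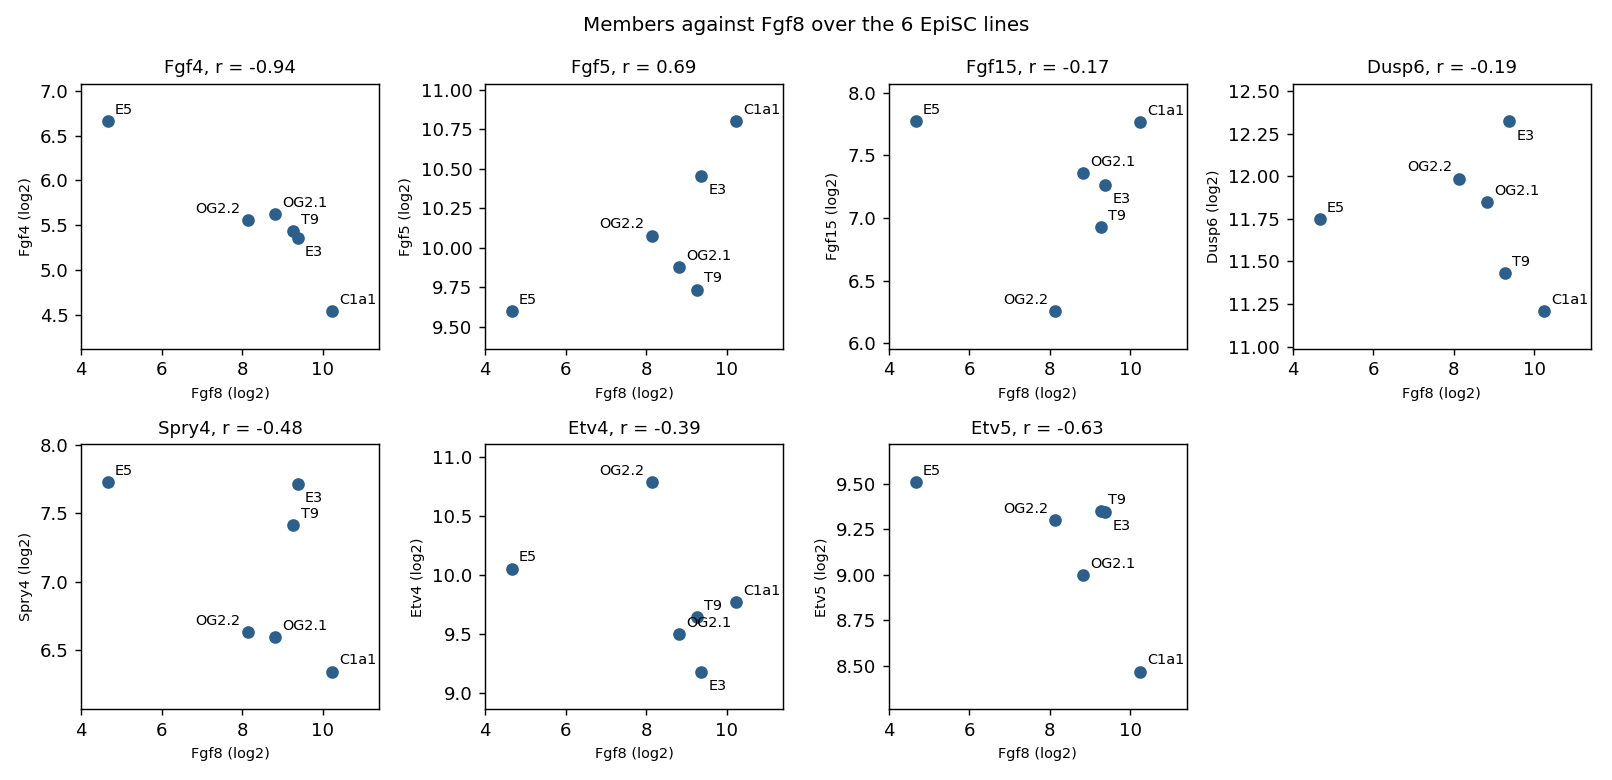
Log2 value of 7 members (vertical axes, each on its own scale) against that of Fgf8 (horizontal axes) in the 6 EpiSC lines, 1 point per line, with Pearson's r above each panel. Fgf4 declines along Fgf8 (r = -0.94), while Dusp6, Spry4, Etv4 and Etv5 spread without a rise from E5 on the left to C1a1 on the right.

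Over the 28 pairs of tested members, 3 had an exact p under 0.05 for r, and 0 passed after adjustment over all genes. These were Fgf4 with Fgf8, Fgf4 with Fgf5 and Spry4 with Etv5. Fgf4 and Fgf5 had r = -0.84 (exact p = 0.0250, adjusted p = 0.555), and rho = -0.83 (exact p = 0.0583, adjusted p = 0.634), and r was -0.50 without E5 and C1a1. Spry4 and Etv5, both lowest in C1a1 and highest in E5, had r = 0.80 (exact p = 0.00556, adjusted p = 0.418) and rho = 0.94 (exact p = 0.0167, adjusted p = 0.448). With E5 and E3, the lines farthest from the median of Spry4, left out, r was 0.74. Etv4 and Etv5, although of one factor group, had r = 0.14 (exact p = 0.775, adjusted p = 0.997).

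The genes most like Fgf8 over the 6 lines were then listed. Among 321 genes with an SD of at least 1, the highest r belonged to Hhex (0.99), a homeobox gene of early endoderm, Nme5 (0.98), Mogat2 (0.98), an acyltransferase gene of fat uptake, Lefty1 (0.97), an antagonist of Nodal, and Rtl8c (0.97). Each was lowest in E5, which choosing by r with Fgf8, itself lowest in E5, makes likely. Exact p-values of r ran from 0.00139, the smallest that 720 pairings can give, to 0.0194, and adjusted ones from 0.457 to 0.672. Lefty1 and Hhex were high in R1 (11.67 and 9.15), where Fgf8 was not above background, while Nme5, Mogat2 and Rtl8c were low there (4.81, 4.82 and 4.69).

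For Fgf15 the nearest genes were Wdr46 (r = 0.83), Lgals3 (0.83) and Shisa2 (0.81), and for Dusp6 they were Cpped1 (0.91), Snx5 (0.87) and Lrrc57 (0.82). None of them passed after adjustment over all genes by the exact permutation test, and the adjusted p of each Dusp6 partner was 0.999. Of the 8 tested members, Fgf8 alone had an SD of at least 1, so the others could not appear in these lists.

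Markers of other cell types were set beside Fgf8 as well. Of the 10 tested primitive streak markers, 9 had a positive r with Fgf8 (median 0.76), against 50.7% of all genes with a median of 0.01. These r include E5, the line without detected Fgf8, and no values without E5 are given for the list. A graded relation among the other lines is thus not shown. Mixl1 and Evx1 were above background in only 1 of the 6 EpiSC lines each. The summed signal of the 10 streak markers was 1188 in E5 and 1230 in R1, and 2452 to 6188 in the other EpiSC lines. Of the 10, 1 was above background in E5, 2 in R1 and 9 in C1a1. Summed signals here and below hold the background of every probe, detected or not, so their ratios are not folds of RNA. Of the 17 other ERK feedback and response genes, 12 had a positive r (median 0.21). Of 7 tested extraembryonic endoderm markers, 6 had a positive r (median 0.55). The summed signal of the 7 was lowest in E5 (966), highest among EpiSC lines in C1a1 (2016) and 2981 in R1. Sox7 and Ttr, both counted as positive, were above background in R1 alone, so their r compares background values. The part of streak or endoderm cells in the Fgf8 differences was not tested.

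Fibroblast and feeder markers were set beside Fgf8 in the same way. Of the 8 tested, 3 had a positive r with Fgf8 (median -0.58), against 50.7% of all genes with a median of 0.01. Col1a1, Pdgfra and Twist1 were above background in only 2, 1 and 3 of the 6 EpiSC lines. Their r thus rests partly on background values. Thy1, Dcn, Loxl1 and Fstl1 had their highest EpiSC value in E5 (9.61, 9.30, 6.70 and 10.48 on the log2 scale). The rest peaked elsewhere, Col1a1 and Mmp2 in OG2.2 (5.99 and 10.55) and Twist1 and Pdgfra in OG2.1 (7.74 and 5.83). Pdgfra was lowest in E5 (4.62). The summed signal over the 8 tested genes was 4404 in E5, 3446 in C1a1 and 1946 in R1. Over the EpiSC lines it ran from 2093 in E3 to 4573 in OG2.1, a line with Fgf8 above background. Of the 12 listed, 4 were above background on no array, namely Col1a2, Col3a1, Lum and Postn. Between the cell types, 2 of the 8 tested were called higher in EpiSCs (Thy1 and Mmp2) and 0 lower, against 7.1% and 8.11% of all genes. The part of feeder RNA in the member values was not tested.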

How the data were processed

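RNA of 6 EpiSC lines and 1 ESC line was measured on 1 Illumina bead array each. The deposited intensity values are probe signals named as not normalised, and their values do not look background-subtracted. A detection p-value per probe stands beside each signal, per the file headers. The authors' deposited log2 values have the same quartiles on all 7 arrays. The submitters' processing notes name BeadStudio 3.2, lumi and RMA, without their order.

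Intensities were normalised with neqc (limma 3.58.1, R 4.3.3, offset 16). A probe was kept if its detection p was under 0.01 on any array (13396 probes), and the brightest represented each gene (9213 genes). Limma was run over every gene, with 2-sided p-values and Benjamini-Hochberg adjustment at 0.05. Correlations over the 6 EpiSC lines used exact permutation. The fits were tested on simulated data. The text names all 9 members, up to 4 called genes per pathway list and direction, and the genes nearest Fgf8 (5), Fgf15 (3) and Dusp6 (3) among those with an SD of at least 1. Fgfr1, Fgfr2 and the cell type markers were named after their values were seen. Members and lists were chosen with earlier results of these data known. Where a group was below background, folds are bounds against the lowest detected value per array. Alternatives covered background correction, scaling, deposited values, filters, probe choice, variance model, Spearman's rho and lines left out. A slide block was not run, as the files name no slide.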

Additional observations from a re-analysis of the deposited data

Results flagged for a closer look

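Spry2 in E3 lay apart from the other 5 EpiSC lines: the gap to the nearest line was 0.678 of the whole range, above the critical value of 0.625 for 6 samples. Its signal there was 131, with a detection p of 0.0188, and like every other Spry2 value it was not above background. Chance flags about 1 in 20 such groups.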

How the results depend on the processing

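The count of 2 called members between the cell types was 1 without background correction and 1 without a detection filter, and ran from 1 to 2 when single lines were left out. Without background correction the log2 differences were also smaller: 3.56 for Fgf5, 2.01 for Fgf8, 0.880 for Fgf15, -0.404 for Fgf4 and -0.510 for Spry4. E5 then differed from the other EpiSC lines by -2.58 for Fgf8 and 0.560 for Fgf4, and OG2.2 by -0.644 for Fgf15. Fgf5 passed in all 15 alternatives run, and Fgf15 was lost in 7 of them. The Etv4 difference of 0.03 turned to -0.0186 with median scaling, to -0.131 without OG2.1 and OG2.2, and ran from -0.164 to 0.157 with single lines left out. With E5 left out, r with Fgf8 turned positive for Fgf15 (0.865) and Spry4 (0.00608), and with C1a1 left out for Dusp6 (0.182). With single lines left out, r ran from -0.482 to 0.865 for Fgf15, from -0.726 to 0.00608 for Spry4 and from -0.562 to 0.182 for Dusp6. The call on Fgf8 between cell types was gained only without E5, a line singled out by its Fgf8 value, so it is no separate support. The causes were not tested. The counts of 0 members called in single lines by limma, where 7 had an unadjusted p under 0.05, and of 0 feedback genes with an exact p under 0.05 against Fgf8 were the same in all settings run. The second was not counted without both OG2 lines. No paired analysis was possible because the ESC group is 1 array, and the number 1 that every column carries ties no samples together. Signal over background limits Fgf4, Fgf15 and Spry2.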
